A study of Mus musculus with 8 samples.

Results

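Probes that the manufacturer named by an AK accession were examined in cardiac RNA of mice after myocardial infarction (MI). An AK accession is the database entry of a single cloned cDNA, and most mouse entries of this kind come from collections of full-length cDNA clones. The members were all non-control probes whose systematic name is AK followed by digits, which gave 2246 probes for 2210 accessions, of 55681 probes on the array. Retention asked that the scanner software marked a probe as well above background in 4 or more of the 8 mice, which left 1132 AK probes of 34038 retained probes. The files hold no gene name, no description and no sequence for these probes, and 0 of the 2210 accessions occur in the RefSeq gene table used here (GRCm38.p6). The AK probes are therefore called by their accession, except for 3 clones that the study pairs with a gene.

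Full-length cDNA cloning captures an RNA from its cap to its poly(A) tail and gives a transcript that is independent of any gene prediction. Mouse collections of this kind were drawn from many tissues and embryonic stages. They hold messenger RNAs, alternative forms of known genes, transcripts of pseudogenes and many long non-coding RNAs, which are known to be made at low abundance and in few cell types. In the heart after coronary occlusion, cardiomyocytes of the ischemic wall die and neutrophils enter within a day, so that cardiac RNA then comes from a changed mixture of cells.

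Adult male C57BL\6 mice had either a permanent ligation of the anterior interventricular artery (MI, 4 mice) or a sham operation with no ligation (4 mice), and the ventricles were taken 24 hours later. No transgene was part of the design, and both groups underwent anesthesia and surgery. Per the paper, the mice of both groups also had a PET scan of the heart 24 hours after surgery. For this scan mice received the drug Acipimox and the tracer FDG, so that these are shared by both groups. Each mouse had 1 array, on which a single dye reports 1 RNA sample, so that the replicates are separate mice. The RNA came from whole ventricles, which mix infarcted with surviving tissue, and fewer cells of a type cannot be told apart from less RNA per cell. The log2 signals below are the processed signals on the scale of the authors' spike-in normalization, with 1 scale and 1 additive constant per array, and differences are given as MI minus sham. Groups were compared with limma over all retained probes with Benjamini-Hochberg adjustment. To be called, a probe needed a fold change over 2 together with an adjusted p under 0.05. Exact permutation tests of single probes were two-sided, with p = 0.0286 the smallest value that 4 against 4 mice allow.

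The ventricles carried strong signals of cardiomyocyte markers, measured by 10 of 10 listed genes, and their summed processed signal ranged from 2916440 to 3194820 in MI and from 2524280 to 3214130 in sham-operated mice. Of 12 listed neutrophil markers, 11 had a retained probe and 7 were called higher in MI mice, with summed signals of 293514 to 450744 in the MI group against 76450 to 144448 in the sham group. Of 13 measured monocyte and macrophage markers 2 were called higher, and among the markers of smooth muscle 1 of 5 was called higher. For T cells (7 measured markers), B cells (5), fibroblasts (8) and endothelial cells (8), limma called 0 markers, while 2, 1, 0 and 0 of them had an adjusted p under 0.05 at any fold. The part of the cell mixture in the AK signals below was not tested.

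AK probes were detected less often than probes of messenger RNAs. In MI mice, the share of the 2246 AK probes that was well above background was 51.9%, 49.8%, 54.1% and 50.4% in replicates 1 to 4. In sham-operated mice it was 56.1%, 46.9%, 46.1% and 46.5%. Sham replicate 1 thus had the highest share of the 8 mice, and the remaining 3 sham-operated mice had the lowest, so that the groups overlapped. That mouse stood apart from the other sham-operated mice over the whole array too, since 65.0% of all 55681 probes were detected in it against 57.6% to 58.0% in the other 3. The MI mice ranged from 60.3% to 65.6%.

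**Figure D1:**
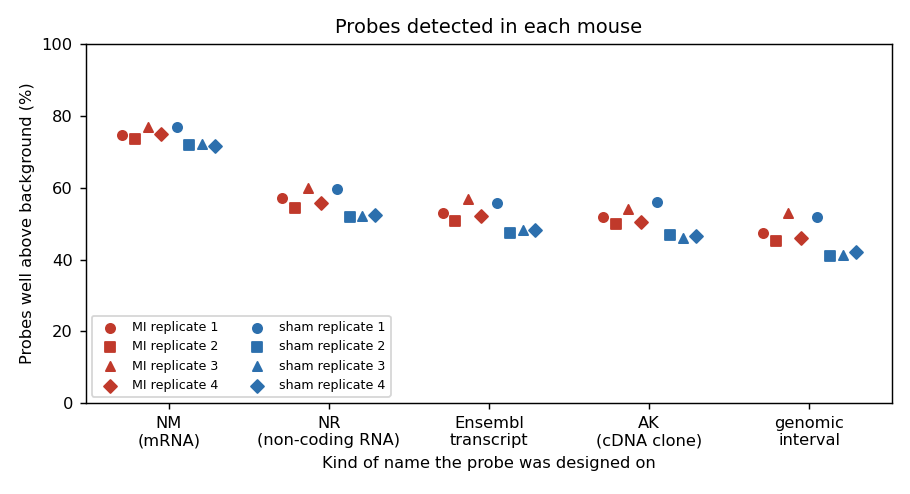
Share of probes well above background (vertical axis, %) in each of the 8 mice for 5 kinds of probe name (horizontal axis). Red symbols are MI mice, blue symbols are sham-operated mice, and the shape gives the replicate number. The AK probes lie between 46.1% and 56.1%, below the probes of messenger RNAs (71.7% to 77.0%) and above those designed on genomic intervals (40.9% to 53.0%).

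Over the 8 arrays, detection of the AK probes was mostly all or nothing. On all 8 arrays 925 AK probes (41.2%) were detected and on none 839 (37.4%), while 482 fell between. Retention was 50.4% for AK probes, against 74.3% of the 26392 probes named by an NM accession (messenger RNA), 55.8% of the 771 named by NR (non-coding RNA), 51.5% of the 4226 named by an Ensembl transcript and 46.1% of the 16194 named by a genomic interval. AK probes hence resembled the Ensembl and interval probes more than the messenger RNA probes. At the edge of the rule, 44 AK probes were detected on exactly 4 arrays and had a median processed signal of 13.8 (range 9.18 to 22.0), and 54 were detected on exactly 3 arrays and had a median of 12.1 (range 8.39 to 17.7).

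The retained AK probes gave mostly dim spots. Their mean processed signal over the 8 mice had a median of 74.3, with quartiles of 31.7 and 227, beside a median of 436 for retained NM probes, 137 for NR, 92.2 for Ensembl and 54.6 for interval probes. Signals of different probes also depend on how well each probe hybridizes, so that these values describe spots and not transcript abundance. Below a signal of 30 lay 272 AK probes (24.0%), between 30 and 100 lay 385 (34.0%), and between 100 and 1000 lay 371 (32.8%). Only 73 reached the range from 1000 to 10000 and 31 exceeded it. The spread between mice was like that of the other probes. For AK probes the SD of the log2 signal had a median of 0.30 in the MI group and 0.27 in the sham group, as it had for all retained probes.

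Between MI and sham-operated mice, 26 AK probes were called. Of the 1132 retained AK probes 18 (1.59%) were higher and 8 (0.707%) were lower in MI mice, together 2.30%. Over all retained probes, the background was 3.48% called in either direction, 3.07% higher and 0.405% lower. The AK probes thus had a smaller share of higher calls and a larger share of lower calls than the array as a whole, and this difference was not tested. Without sham replicate 1, the mouse with the highest share of detected probes, 24 AK probes were called higher and 5 lower. Over all 34038 retained probes, 1321 were then called higher and 140 lower. Of the 26 calls, 5 higher and 2 lower were of probes not detected in every mouse of the dimmer group. These would not have been retained without the arrays of the brighter group, and no p-value of this limma fit is given for them below. A fit to probes detected in all 8 mice called 14 higher and 6 lower of 925 AK probes, beside 826 higher and 132 lower of all 29805 such probes. At any fold, an adjusted p under 0.05 was reached by 47 AK probes that were higher (4.15%) and 23 that were lower (2.03%), beside a background of 6.3% and 1.31%. The 4 mice of each group did not overlap for 75 AK probes that were higher (6.63%) and 28 that were lower (2.47%), beside 8.46% and 2.7% of all retained probes. For 955 AK probes (84.4%) the log2 fold change lay within 0.5 of 0, as for 82.3% of all retained probes.

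**Figure D2:**
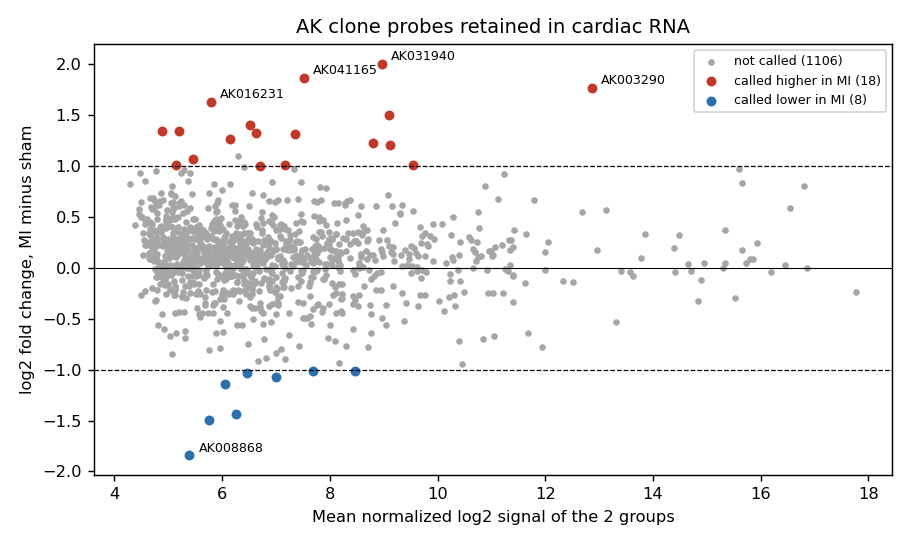
log2 fold change (MI minus sham, vertical axis) against the mean normalized log2 signal of both groups (horizontal axis) for the 1132 retained AK probes, with dashed lines at a 2-fold difference. Red points are the 18 called higher in MI mice, blue points the 8 called lower, and the accessions mark calls beyond 1.6 in either direction.

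The number and direction of these calls moved with the scaling. After scaling each array to its 75th percentile, 24 AK probes were called higher and 24 lower (2.12% each), beside a background of 3.06% and 1.18%, and the median log2 fold change of all retained probes moved from 0.12 to -0.02. Of the 26 AK probes called on the authors' scale, 23 (88.5%) were called there too, and they made up 47.9% of the 48 calls after that scaling. With an own fit of the vsn model to the spike-in spots, which adds constants of 166 to 256 to every signal, only 3 AK probes were called, all of them higher in MI mice. The constants of the authors' values lay between 3.16 and 19.6, so that dim spots keep larger folds on that scale. No called AK probe changed its direction under any of the 22 alternatives. The 3 probes called under every alternative were AK031940, AK003290 and AK019325.

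Within each range of signal, the share of AK probes called was also below that of all retained probes. Below a signal of 30 it was 1.10% against 1.93%, from 30 to 100 it was 2.34% against 3.36%, from 100 to 1000 it was 3.50% against 4.89%, and from 1000 to 10000 it was 1.37% against 3.31%. The 8 lower calls all lay between 30 and 1000. Above 10000, limma called 0 of the 31 AK probes, against 1.65% of all retained probes, and 31 probes are few for so low a share. Of these AK probes 5 had an unadjusted p under 0.05 in limma, and 3 had an adjusted p under 0.05 at a fold below 2.

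The study lists 3 AK clones among its long non-coding RNAs and pairs them with the genes Hmga2-ps1 (AK033703), 4833427F10Rik (AK014779) and 2210409D07Rik (AK008868). Hmga2-ps1 is annotated as a transcribed pseudogene and the others as long non-coding RNAs. The study picked these clones from the same 8 mice, so that their differences here are not independent evidence. All 3 were called, AK033703 and AK014779 higher and AK008868 lower in MI mice.

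The probe of AK033703 gave log2 signals of 7.95, 7.65, 8.14 and 8.28 in the MI mice, replicates 1 to 4 in order, against 6.78, 6.57, 6.66 and 6.76 in the sham-operated mice. The lowest MI mouse stood well above the highest sham-operated mouse, and the sham-operated mice lay close together. The means were 8.005 ± 0.273 and 6.69 ± 0.10 (SD, n = 4 each), a log2 fold change of 1.31 with a standard error of 0.21 (2.48-fold, adjusted p = 8.3e-05 in limma, exact permutation p = 0.0286). In the annotation, Hmga2-ps1 lies within the span of Sdccag8, which encodes a protein of the centrosome and cilium base. The Sdccag8 probe gave a log2 fold change of -0.23 (adjusted p = 0.62) and was not called.

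For AK014779, the log2 signals were 9.79, 9.98, 10.08 and 9.04 in the MI mice against 8.41, 7.92, 9.04 and 8.70 in the sham-operated mice. MI replicate 4 and sham replicate 3 met at 9.04, and the groups were separated only at the fourth decimal (9.0427 against 9.0425). The mean was 9.72 ± 0.47 in the MI group and 8.52 ± 0.47 in the sham group (SD, n = 4 each), with a log2 fold change of 1.20, a standard error of 0.25 and an adjusted p of 0.0023 in limma. The next protein-coding gene on one side of 4833427F10Rik is Ier3, an immediate early gene that responds to stress and inflammatory signals. Its probe gave log2 signals of 12.31, 12.38, 12.74 and 11.68 in the MI mice against 9.98, 9.27, 10.07 and 9.89 in the sham-operated mice. Ier3 was called higher in MI mice with a log2 fold change of 2.47 ± 0.24 (SE, adjusted p = 4.5e-08 in limma). In both genes MI replicate 3 was the highest mouse, MI replicate 4 the lowest MI mouse and sham replicate 2 the lowest of all. The neighbour on the other side, Ddr1, a collagen receptor, stood at 0.14 (adjusted p = 0.79).

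Because the AK014779 clone and its neighbour Ier3 were both called higher, the 250 bases before the annotated start of each gene are shown from the RefSeq promoter table (build GRCm38.p6, both on the + strand). The window of 4833427F10Rik is chr17:35772200-35772449 and that of Ier3 is chr17:35821463-35821712. Capitals mark matches to a CCAAT box or a GC box.
4833427F10Rik: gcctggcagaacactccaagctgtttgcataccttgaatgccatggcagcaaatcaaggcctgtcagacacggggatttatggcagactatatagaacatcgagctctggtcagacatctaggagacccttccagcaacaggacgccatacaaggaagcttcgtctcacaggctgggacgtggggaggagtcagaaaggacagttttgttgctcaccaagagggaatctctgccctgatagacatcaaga
Ier3: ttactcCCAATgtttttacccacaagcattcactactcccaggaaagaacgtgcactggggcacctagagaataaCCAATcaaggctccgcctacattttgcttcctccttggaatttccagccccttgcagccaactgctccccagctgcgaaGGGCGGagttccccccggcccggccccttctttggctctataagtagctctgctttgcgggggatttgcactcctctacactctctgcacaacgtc
Both windows were searched on both strands for a few short motifs that are common near start sites. The letters searched for the TATA box were TATAAA, and those for the box that binds the factor NF-Y were CCAAT. For the GC box, which binds Sp1 and related factors in many promoters, they were GGGCGG. An AP-1 site, bound by pairs of Fos and Jun proteins after many kinds of stress, was searched as TGANTCA with any base at the N. Most of a site of the inflammatory factor NF-kB was searched as GGGANTTTC, and no match overlapped another. The window of Ier3 held 2 matches to the CCAAT box, with first bases 244 and 175 bases before the start, and 1 to the GC box, 96 bases before it. No match to any of the 5 motifs was found in the window of 4833427F10Rik. Only exact matches to these letters were counted, so that variants of the sites were missed in both windows. Of 32851 promoter windows in the table, 33.8% held the CCAAT box, 32.7% the GC box, 12.4% the TATA box, 6.75% the AP-1 site and 0.941% the NF-kB letters. The G and C content was 51.2% for 4833427F10Rik and 54.4% for Ier3, beside a median of 52.4% over all windows.

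On the authors' scale with dim spots kept, AK008868 was the AK probe with the most negative fold change. On their deposited values, where the MI spots not well above background are missing, it stood at -1.21 and AK033778 at -1.43. The log2 signals of AK008868 were 5.47, 4.45, 3.23 and 4.73 in the MI mice against 6.71, 6.09, 6.01 and 6.44 in the sham-operated mice. The MI mice were spread over more than 2 log2 units, and only 2 of the 4 had a signal well above background, while all 4 sham-operated mice did. The means were 4.47 ± 0.93 and 6.31 ± 0.32 (SD, n = 4 each), with a log2 fold change of -1.84 and a standard error of 0.31. The probe reached the 4 arrays needed for retention in sham-operated mice alone, so that no p-value is given for it. In processed signal the probe stood at 26.7, 8.07, 3.64 and 14.1 in the MI mice against 109, 50.4, 45.4 and 66.1 in the sham-operated mice, close to the additive constants, and its fitted log2 fold change ranged from -2.93 after 75th percentile scaling to -0.32 with the own spike-in fit. The gene 2210409D07Rik lies within the span of Ccdc192 in the annotation, and the dim Ccdc192 probe gave -0.02 (adjusted p = 0.98).

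Among the clones that were higher in MI mice, AK031940 had the largest fold change. It gave log2 signals of 9.72, 9.98, 10.30 and 9.87 in the MI mice against 8.03, 7.74, 8.24 and 7.82 in the sham-operated mice. Every MI mouse exceeded every sham-operated mouse by more than 1 log2 unit, with a log2 fold change of 2.01 ± 0.21 (SE, 4.02-fold, adjusted p = 1.6e-07 in limma). AK041165 followed with 8.16, 8.49, 8.39 and 8.78 in the MI mice against 6.89, 6.55, 6.86 and 6.06 in the sham-operated mice. Its fold change was 1.87 on the log2 scale (standard error 0.22, adjusted p = 1.6e-06).

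AK003290 was the brightest of the called AK probes. Its processed signal was 12570, 16609, 13103 and 16783 in the MI mice against 4293, 3709, 4735 and 2752 in the sham-operated mice. Far above every additive constant, its fold change hardly depended on the scaling and stayed between 1.65 and 1.98 on the log2 scale over all alternatives. On the authors' scale the means were 13.75 ± 0.09 and 11.98 ± 0.44 (SD, n = 4 each), with a log2 fold change of 1.77, a standard error of 0.22 and an adjusted p of 3.2e-06 in limma. The MI mice agreed more closely with each other than the sham-operated mice did.

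AK019325 separated the groups with little spread in either. It gave 9.65, 9.99, 9.84 and 9.90 in the MI mice against 8.42, 8.29, 8.25 and 8.40 in the sham-operated mice, a log2 fold change of 1.51 ± 0.20 (SE, adjusted p = 6.4e-06 in limma). AK016231 had a larger fold change of 1.63 with a standard error of 0.26, from 6.40, 7.03, 6.99 and 6.04 in the MI mice against 5.30, 5.59, 4.67 and 4.36 in the sham-operated mice, but it was a dim probe that was well above background in 3 of 4 sham-operated mice. The signals of AK016231 within each group covered about 1 log2 unit.

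AK142435, AK018313 and AK081630 were well above background in all 8 mice and did not overlap between the groups. AK142435 stood at 7.29 ± 0.20 in the MI group and 5.97 ± 0.12 in the sham group, AK018313 at 6.77 ± 0.32 and 5.51 ± 0.18, and AK081630 at 9.41 ± 0.39 and 8.18 ± 0.37 (SD, n = 4 each). Their log2 fold changes were 1.32, 1.26 and 1.23, with adjusted p-values in limma of 5.7e-05, 0.00021 and 0.00086. AK030322 reached 1.41 (adjusted p = 0.0015) with overlapping groups, since MI replicate 4 (6.21) lay below sham replicate 1 (6.34). It was outside the rule for named probes and is given because it was called.

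**Figure D3:**
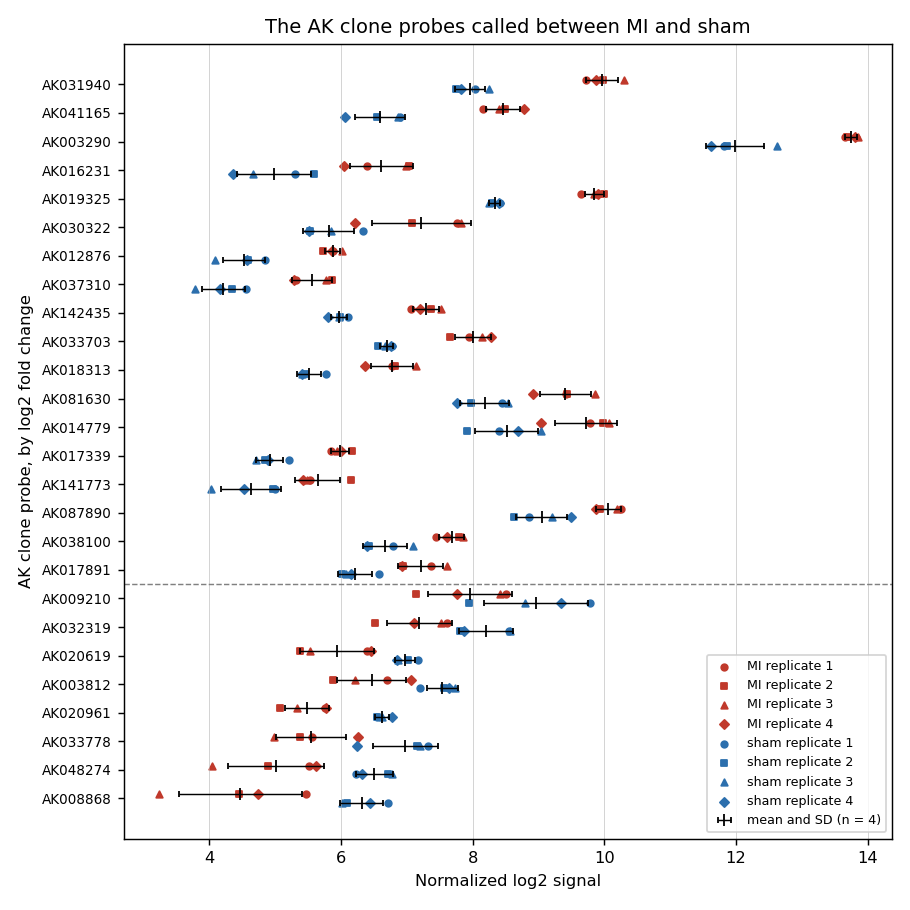
Normalized log2 signal (horizontal axis) of each of the 26 called AK probes (vertical axis, ordered by log2 fold change) in MI mice (red) and sham-operated mice (blue). Each symbol is 1 mouse, and the black bar gives the mean and SD of 4 mice. Above the dashed line MI mice are higher, and 23 of the 26 probes show no overlap between the groups.

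Some of the higher clones were barely detected without infarction. AK037310 was well above background in 4 of 4 MI mice and in 0 of 4 sham-operated mice, with processed signals of 22.2, 53.8, 43.8 and 28.5 against 12.3, 2.43, 7.22 and 5.68. Since the sham signal is only a bound, MI mice were at least 2.38-fold higher on the authors' scale. Other scalings moved this dim probe, and its fitted log2 fold change ranged from 0.18 with the own spike-in fit to 2.39 with the spike-in shift alone. The probe was retained through its MI arrays alone, so that no p-value is given for it. That bound sets the mean of the MI mice against the mean, over the sham-operated mice, of the lowest log2 signal well above background on the array or the probe's own, whichever was higher. AK012876 was detected in 4 MI mice and 1 sham-operated mouse, with log2 signals of 5.88, 5.73, 6.02 and 5.86 against 4.84, 4.59, 4.08 and 4.57 and a log2 fold change of 1.35. It reached the 4 arrays needed for retention in MI mice alone, and on the deposited values of the authors, where spots not well above background are missing, its log2 fold change was 1.03 (adjusted p = 0.064 in limma) and it was not called. The MI mice lay within 0.3 log2 units of each other. AK141773, also detected in 1 sham-operated mouse, stood just above a 2-fold difference at 1.01, and at 0.64 on the deposited values (adjusted p = 0.36 in limma). It too reached the 4 arrays in MI mice alone.

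Detection in all 4 MI mice and in no sham-operated mouse occurred for 6 AK probes (0.267%), and the reverse for 0, beside 107 (0.192%) and 4 of all probes. Besides AK037310 these were AK043032, AK039405, AK045681, AK038155 and AK035822, chosen after their values were seen. On the authors' scale, their bounds were at least 1.57, 1.48, 1.61, 1.54 and 1.90-fold higher in MI mice. They too were retained through the MI arrays alone, and no p-value is given. None of the 5 was called at a fold over 2. Among the retained AK probes, 142 (12.5%) were detected in more MI than sham-operated mice and 34 (3.00%) in more sham-operated than MI mice, beside 8.75% and 1.95% of all retained probes. Without replicate 1 of either group, the AK shares were 13.3% and 2.74% and those of all retained probes 9.12% and 1.78%. Retention used the same detection flags, so that these shares only describe the retained probes, which as a whole were also detected in more MI than sham-operated mice.

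The other 4 higher calls lay close to the threshold of the fold. AK017339 stood at 1.07, AK087890 at 1.01 (adjusted p = 0.0033), AK038100 at 1.01 (0.0028) and AK017891 at 1.00 (0.0035). Just below the threshold were AK046753 at 0.99, AK019465 at 0.97 and AK011855 at 0.97, each with an adjusted p under 0.05. The probes on both sides of the line thus differed by a few hundredths of a log2 unit. Leaving out 1 mouse ended the call of AK141773, AK087890, AK038100 or AK017891 for at least 3 of the 8 mice, while the other 14 higher calls were kept whichever mouse was left out.

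One further AK probe exceeded a 2-fold difference without being called. AK046953, chosen after its values were seen, gave 5.62, 6.31, 8.62 and 6.79 in the MI mice against 5.59, 5.74, 5.30 and 6.31 in the sham-operated mice, which is a log2 fold change of 1.10 and an adjusted p of 0.081. Its fold rested on MI replicate 3, without which it was 0.50 (adjusted p = 0.36).

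Among the clones that were lower in MI mice, AK048274 came after AK008868. It gave 5.51, 4.89, 4.04 and 5.63 in the MI mice against 6.22, 6.71, 6.78 and 6.32 in the sham-operated mice. AK048274 was well above background in only 3 of 4 MI mice, so that no p-value is given for it. The fitted difference was -1.49 ± 0.27 log2 units (SE). MI replicate 3 was the lowest mouse for AK048274 as for AK008868. A second probe of AK048274 was detected on 0 of the 8 arrays, so that the call rests on 1 of 2 probes.

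AK020961 gave 5.75, 5.08, 5.33 and 5.77 in the MI mice against 6.54, 6.55, 6.62 and 6.78 in the sham-operated mice. The sham-operated mice agreed within 0.3 log2 units and all exceeded the MI mice, with a log2 fold change of -1.14 ± 0.21 (SE, adjusted p = 0.00067 in limma). AK003812 fell by 1.07 on the log2 scale, from 7.54 ± 0.24 in sham-operated mice to 6.47 ± 0.52 in MI mice (SD, n = 4 each, adjusted p = 0.0041). AK020619 fell by 1.03 and AK032319 fell by 1.01, with adjusted p-values of 0.0060 and 0.0099. In AK003812 and AK020619, MI replicates 2 and 3 were the lowest mice and MI replicate 4 the highest of its group.

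The remaining 2 lower calls had overlapping groups and were outside the rule for named probes. AK033778 stood at 5.56, 5.37, 4.99 and 6.27 in the MI mice against 7.33, 7.15, 7.20 and 6.25 in the sham-operated mice, so that sham replicate 4 lay among the MI mice (log2 fold change -1.43, adjusted p = 0.00053). AK009210 had a log2 fold change of -1.01 with an adjusted p of 0.046, and its sham-operated mice ranged from 7.95 to 9.79. The calls of AK009210, AK032319, AK020619 and AK003812 were each lost when some single mouse was left out, and the other 4 lower calls were kept.

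The mice contributed unevenly to the calls. Over the 18 higher calls MI replicate 3 was the highest MI mouse for 10 and MI replicate 4 the lowest for 9. In the sham-operated group replicate 1 was the highest for 11 and replicate 4 the lowest for 8. MI replicate 1 was the highest of its group for only 1 of the 18. For the 8 lower calls, MI replicate 2 was the lowest MI mouse for 5 and MI replicate 3 for the other 3, while replicates 1 and 4 were never the lowest. The median log2 signal over all retained AK probes was 6.69, 6.15, 6.59 and 6.33 in MI replicates 1 to 4 and 6.56, 6.21, 6.43 and 6.28 in sham replicates 1 to 4, so that MI replicate 2 also had the lowest median of the 8 mice.

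**Figure D4:**
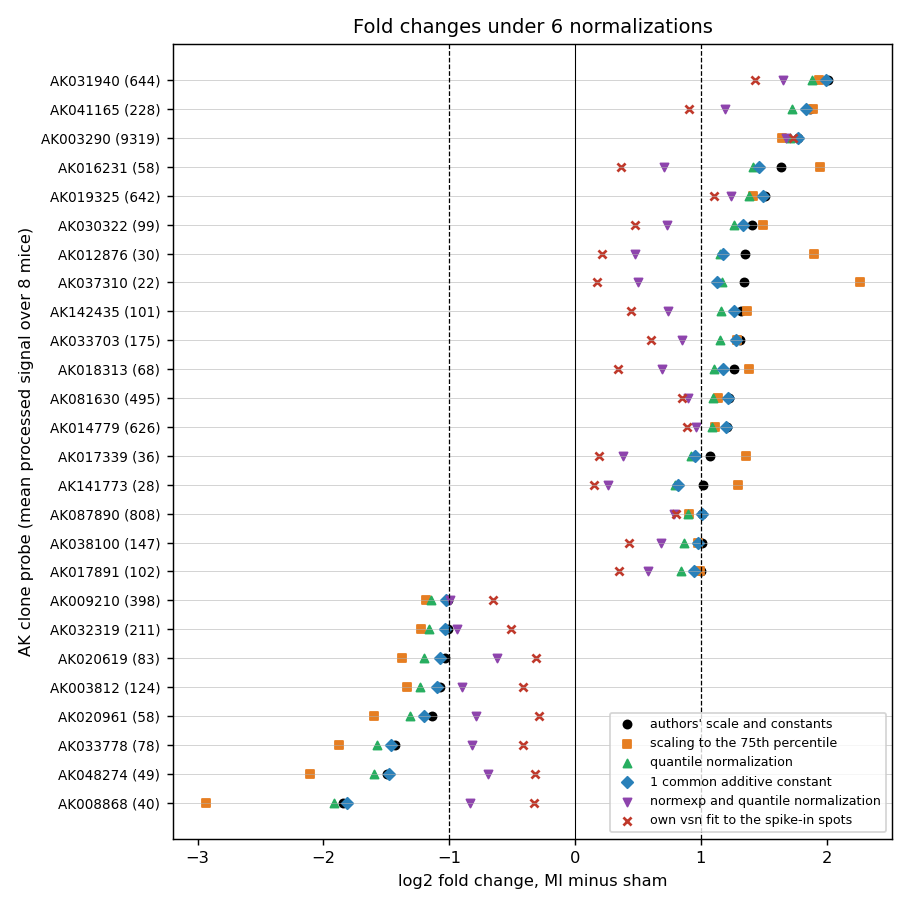
log2 fold change (MI minus sham, horizontal axis) of the 26 called AK probes under 6 normalizations, with each probe's mean processed signal over 8 mice in parentheses. Dashed lines mark a 2-fold difference. AK003290, the brightest, stays in place, while the dim AK008868 moves from -2.93 after scaling to the 75th percentile to -0.32 with the own spike-in fit.

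The 5 brightest AK probes were not called. AK006445 had the highest mean signal, with log2 signals of 17.89, 17.42, 17.78 and 17.53 in the MI mice against 17.71, 17.83, 18.18 and 17.86 in the sham-operated mice, and a log2 fold change of -0.24 (adjusted p = 0.58 in limma). AK136409 stood at 16.85 ± 0.24 and 16.86 ± 0.20, and AK146304 at 16.47 ± 0.18 and 16.43 ± 0.15 in MI and sham-operated mice (SD, n = 4 each). The differences of these 3 probes were within the spread between mice.

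AK132033 gave 17.42, 16.84, 17.66 and 16.89 in the MI mice against 16.39, 16.07, 16.84 and 16.29 in the sham-operated mice, with sham replicate 3 level with the lowest MI mouse. Its log2 fold change was 0.81 ± 0.23 (SE, adjusted p = 0.029), below a 2-fold difference. For AK203298 the fold change was 0.58 with an adjusted p of 0.12, although no sham-operated mouse reached the lowest MI mouse (exact permutation p = 0.0286). AK035396 and AK019465, the other bright probes with an adjusted p under 0.05, stood at 0.84 (0.025) and 0.97 (0.013). They were chosen after their values were seen.

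For 31 accessions the array carries more than 1 AK probe, which gives a second look at the same clone. All probes were retained for 7 of them, no probe for 12, and some but not all for the other 12. Both probes of AK139675 that were retained gave nearly the same fold change, 0.03 and -0.02 on the log2 scale, and the last one was detected on 1 array. The contrast was widest for AK136780, where 1 probe was detected on all 8 arrays with a mean signal of 8081 and the other on none with 3.56. Among the 9 accessions with at least 2 retained probes, the fold changes of the probes differed by 0.06 to 0.48 on the log2 scale, with a median of 0.27, and had 1 sign in 6 and both signs in 3. These accessions were described after their values were seen.

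A pair of AK probes was printed in 10 spots each, which shows the error within an array. For AK018620, with mean signals of 119 to 205, the coefficient of variation over its spots was 3.71% to 8.18%. For AK053689, with mean signals of 2.71 to 10.9, it was 9.88% to 56.1%, and at most 4 of the 10 spots were well above background. All other AK probes had 1 spot, so that the error of a single dim spot is part of the spread between mice.

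The AK accessions fall into blocks of numbers separated by gaps of more than 5000. Retention was 43.5% of 758 probes for AK002255 to AK021396, 51.5% of 637 for AK027968 to AK054493, 55.9% of 347 for AK075670 to AK090337 and 54.8% of 496 for AK129341 to AK173092. The first block was thus the least often retained, while the median signal of its retained probes was 69.2, beside 65.5, 82.0 and 88.2 in the others. Calls were spread as 8 higher and 5 lower in the first block, 6 and 3 in the second, and 2 higher in each of the last 2. All 8 lower calls came from the first 2 blocks, which was not tested.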

How the data were processed

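Total RNA of the ventricles of 8 mice (4 MI, 4 sham) was hybridized to 8 Agilent SurePrint G3 mouse arrays in 1 colour, all on 1 slide and read in 1 scan, in 2 rows with both groups in each. The intensities were deposited as Feature Extraction 11.0.1.1 had processed them, per the file headers with local background subtracted and spatial trends removed, on a design of build mm9. The log2 values deposited by the authors were normalized between arrays with spike-in probes by limma and vsn. Set against the scanner output, each array of them equals log2 of the processed signal plus a constant, plus a scale, with a misfit of at most 5e-09. That scale and constant (3.16 to 19.6) were applied to all spots here. Outlier-flagged spots were dropped, and the remaining spots of a probe were averaged.

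Groups came from the labels. Values were compared in limma 3.58.1 (R 4.3.3) without covariates, with Benjamini-Hochberg adjustment over 34038 retained probes. A probe was called at a fold change over 2 and an adjusted p under 0.05. Other steps used Python 3.11.15, numpy 2.4.6, pandas 2.3.3 and matplotlib 3.10.9. The number of arrays limits the precision.

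The probes named in the text were the 3 clones listed by the study, up to 12 with the largest fold in each direction (12 higher and 6 lower) among those called with groups that do not overlap (and with the brighter group well above background and not saturated), and the 5 with the highest mean signal. Other probes were named after their values were seen. The members, marker lists and tests were chosen with earlier results of these data known. Marker genes were measured by the retained NM probe with the highest mean signal, and symbols came from RefSeq accessions (26576 probes paired). A planned comparison of AK probes with the messenger RNA probe of the same gene, and lists matched on gene names, were not run, since no table used here pairs AK accessions with genes.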

Additional observations from a re-analysis of the deposited data

Results flagged for a closer look

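Among 62 groups of 4 values of the named AK probes, 3 held a mouse that stood apart from its group by Dixon's criterion, which chance alone gives in about 1 of 20 groups. In AK018313, sham replicate 1 had a log2 signal of 5.78, while the other sham-operated mice lay between 5.40 and 5.46. In AK141773, MI replicate 2 had 6.15 and the other MI mice 5.42 to 5.52. In AK033778, sham replicate 4 had 6.25 and the other sham-operated mice 7.15 to 7.33.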

How the results depend on the processing

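On the authors' scale 26 AK probes were called (18 higher and 8 lower), 70 had an adjusted p under 0.05 at any fold, and 1184 of all retained probes were called. No called AK probe changed direction under any alternative. The own vsn fit to the spike-in spots gave 3 AK calls (3 higher, 0 lower in limma, where 37 lower AK probes had an unadjusted p under 0.05), 16 at any fold and 333 over all probes. Normexp with quantile normalization gave 4 (4 higher, 0 lower), 159 at any fold and 531 over all probes, with 176 lower AK probes at an unadjusted p under 0.05. In both, the added constant or offset is of the size of many AK signals. The spike-in shift alone gave 43 AK calls (30 higher, 13 lower). Scaling to the 75th percentile gave 48 (24 lower) with 170 at any fold, and over all probes 1043 higher and 401 lower in place of 1046 and 138. Quantile normalization gave 14 lower AK calls and 189 at any fold. Without a filter on detection there were 17 AK calls (4 lower) and 20 at any fold. Significance analysis of microarrays gave 5 lower AK calls and 110 at any fold. An ordinary t-test with Benjamini-Hochberg adjustment gave 11 AK calls (10 higher, 1 lower), 17 at any fold and 576 over all probes. This t-test is not the permutation procedure by which the study called array probes. The cause of the other shifts was not tested. Asking for detection on all 8 arrays, taking the median of spots, the authors' deposited values (22 of 25 AK calls with a value kept), array row as a block and 1 common additive constant, the last chosen after seeing the data, kept all counts within 1.5 times.

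With the replicate number as a block, 26 AK probes were called, 18 higher and 8 lower, and all 26 were the same probes, while 133 had an adjusted p under 0.05 at any fold. The numbers were not taken as pairs in the main fit, although arrays of same-numbered mice lay side by side on the slide. Deviations of same-numbered mice correlated at 0.24, 0.29, 0.14 and 0.01, and those of differently numbered mice at -0.33 to 0.23. For MI replicates 1 and 2 the same-numbered sham-operated mouse correlated best. MI replicate 3 correlated better with sham replicate 1 (0.23), and MI replicate 4 with sham replicates 2 and 3 (0.08 each). Pairing was not tested beyond these correlations.

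With each mouse left out in turn, AK calls ranged from 24 to 39, higher calls from 17 to 27, lower calls from 4 to 12, calls at any fold from 43 to 75 and calls over all probes from 1046 to 1461. Lower calls were 5 without sham replicate 1 and 4 without MI replicate 2, and calls at any fold were 43 without MI replicate 3. All 8 mice could be left out in turn without losing 18 of the 26 calls.

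Dim spots limit these results, since the signals of 272 of 1132 retained AK probes lay below 30 and the additive constants reach 19.6. The comparison of AK probes with the messenger RNA probe of the same gene was not run, and none of its alternatives.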
